A study of Mus musculus with 72 samples.

Results

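The first appearance of new RNA in the cytosol was followed over 20, 40 and 60 min in mouse embryonic stem cells. The measure was the share of new RNA in the exons of each gene. Genes were taken when at least 2000 T positions in exons had been read in each of 6 cytosol libraries, replicates 3 and 4 at each time, and 10034 of 28559 genes with a row in the conversion files met this minimum. Of these, 9280 were protein coding, 470 were processed pseudogenes and 85 were lincRNA genes. The minimum was set on T positions and not on conversions.

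All cells were E14TG2a, a line of mouse embryonic stem cells, grown on gelatin in serum-containing medium with LIF and the inhibitors CHIR99021 and PD0325901, which act on GSK3 and MEK. The cells of all groups were given 4-thiouridine (4sU), a uridine analog that is built into RNA while it is made, and were opened with digitonin in the presence of cycloheximide, so that the supernatant held the cytosol. The 20 and 40 min groups were labeled with 500 µM 4sU. For the 60 min group the sample labels give 100 µM and the study's methods give 500 µM for 4 replicates of 20 and 60 min and 100 µM for 2 replicates of 60 min, without naming them, and the dose cannot be told apart from the time if the labels are right. The replicates were independently passaged cultures.

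RNA is made in the nucleus, spliced, cleaved, given a poly(A) tail and exported, and in the cytosol it is translated and degraded. A transcript with a short life in the cytosol is replaced quickly, so that most of its copies soon carry the label, whereas a transcript that is stable keeps a large unlabeled pool. mRNAs that encode secreted and membrane proteins move on to the endoplasmic reticulum, which stays behind in the membrane fraction. After alkylation 4sU is read as C, and the share of new RNA is the number of T-to-C (T2C) conversions per T, divided by the conversion rate of the library. It is a ratio of estimates and is not limited to 1.

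The 6 libraries held between 19732115 and 27123264 reads on genes. The deposited conversion rate rose with time, from 2.69% and 3.02% at 20 min over 4.09% and 5.21% at 40 min to 5.83% and 7.57% at 60 min, so each share rests on this rate as well as on the counts. Intronic T positions amounted to between 3.45% and 5.00% of exonic ones in the cytosol libraries and to between 17.2% and 66.7% in the nuclear libraries of the same replicates. Malat1, a nuclear RNA, had 54.2 to 122 CPM (read counts scaled to library size) in the cytosol and 398 to 1927 CPM in the nucleus. The 6 stem cell markers, Pou5f1, Sox2, Nanog, Zfp42, Esrrb and Dppa5a, summed to 7406 to 7709 CPM, while 4 fibroblast markers summed to at most 0.725 CPM. The 4 markers of primitive endoderm summed to at most 3.60 CPM and the 4 of mesoderm and neural cells to at most 22.9 CPM, most of it Pax6.

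The median gene had a new share of 0.0221 and 0.0275 in the 20 min libraries, 0.0423 and 0.0459 in the 40 min libraries, and 0.0865 and 0.0859 in the 60 min libraries. The mean of the medians thus went from 0.0248 ± 0.0038 over 0.0441 ± 0.0025 to 0.0862 ± 0.0005 (SD, n = 2), and the groups did not overlap. The rise to 60 min was 3.48-fold. With 2 libraries in each group an exact permutation test (two-sided) gave p = 0.333, the smallest p it can give. The other 60 min cytosol libraries, replicates 5 and 6, had deposited rates of 2.38% and 2.58%, and the mean of their medians was 0.182, so the absolute share at 60 min depended on which libraries and rates were taken. The order of genes was less dependent on it. The rank correlation across genes between the mean share of replicates 3 and 4 and the share in replicate 5 or 6 was 0.917 and 0.921, over 10033 genes that share no library but come from the same cell line.

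**Figure D1:**
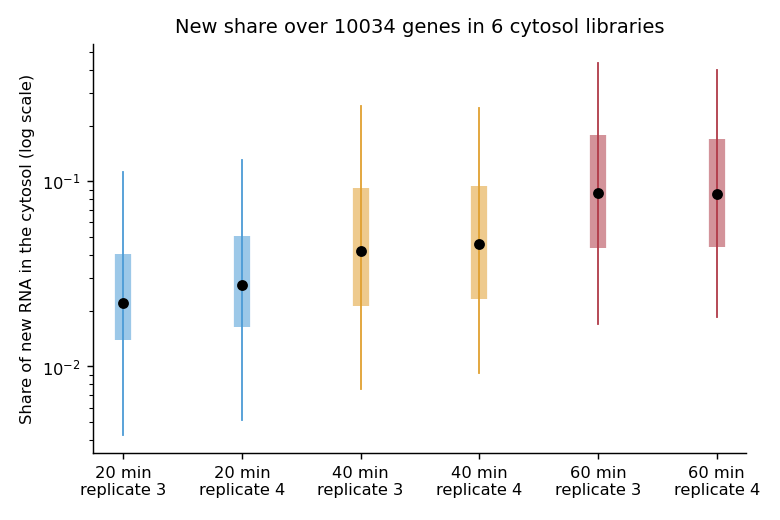
Share of new RNA in 6 cytosol libraries over 10034 genes, on a log scale, by labeling time and replicate. Black points are medians, thick bars run from the 25th to the 75th percentile and thin lines from the 5th to the 95th percentile. The medians lie between 0.0221 and 0.0275 at 20 min and near 0.086 at 60 min.

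Individual genes were tested with edgeR's quasi-likelihood test on T2C counts, with the T counts and the conversion rate as the offset. The share rose from 20 to 60 min in 7181 genes and fell in 10 genes at an adjusted p under 0.05, which was 71.6% and 0.0997% of the 10034 genes. In 8715 genes (86.9%) both 60 min libraries lay above both 20 min libraries. None of 14393 genes (0.0%) passed edgeR's test for a change in cytosolic read counts from 20 to 60 min at an absolute log2 fold change over 0.5, 309 had an unadjusted p under 0.05, and DESeq2 called none. With the replicate number as a block, 165 genes were called, 40 up and 125 down. The first and last genes below had log2 changes in read counts between -0.44 and 0.75, with adjusted p of 1.0.

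Genes were then set against the median gene of the same library, which removes the conversion rate. At 20 min 1983 genes (19.8%) were over 2-fold above the median gene and 408 (4.07%) were over 2-fold below it, in edgeR's test at an adjusted p under 0.05. At 60 min 2470 genes (24.6%) were above and 1895 (18.9%) below by the same rule. Of the genes above at 20 min, 1604 were above at 60 min as well, which was 80.9% of the early list and 64.9% of the later one. Few T2C counts lay behind the early values: the median gene had 45 conversions in the 20 min libraries together, and 1441 genes had fewer than 10.

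The first genes named here were mostly short genes, both coding and noncoding. Genes were taken for this list only if called above the median gene at 20 min and called as rising to 60 min. A gene with a higher share at 20 min but no called rise was left out, such as Snhg15 below. The 15 named genes with the highest share at 20 min among those taken were Snhg12, Neat1, Snhg3, Mir17hg, Txnip, Zfp36, Fgf4, Zfas1, Tsix, Tagap1, AI467606, Yod1, Lif, Dusp6 and Hspa5. The list gives 9 protein-coding and 6 noncoding genes, with a median genomic span of 5.58 kb (2.40 to 53.4 kb) against 22.4 kb over all genes, and 4 of the 15 spanned over 10 kb. The larger sets differed little in span. The median was 17.3 kb in the 1983 genes above the median gene at 20 min and 18.2 kb in the 1895 below it at 60 min. The mean share of the 15 first genes was 0.279 to 0.638 at 20 min and 0.465 to 1.15 at 60 min. The adjusted p of their level at 20 min was at most 1.08e-12. Since the share at 20 min chose them, these values are a description. Fgf4 encodes a growth factor of these cells, Yod1 a deubiquitinase and Tsix the antisense partner of Xist, and Snhg3 overlaps Rcc1. Tagap1 has a paralog, Tagap, on the same chromosome, and how the counting divided reads between such copies was not tested.

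Snhg12, on chromosome 4 (GRCm38, chr4:132308623-132311024), is a host transcript whose introns hold snoRNAs. Its share was 0.653 and 0.623 in the 20 min libraries, 0.992 and 0.963 at 40 min, and 1.07 and 0.979 at 60 min. The exon annotation covers its whole span as 1 block, so the share is of all reads on the gene, spliced or not. By the deposited conversion rates these were almost all new by 40 min. Snhg15, another host, stood higher at 20 min, at 0.735 and 0.888, and had reached 1.06 and 1.04 at 40 min and 1.09 and 0.968 at 60 min, and its rise to 60 min was not called (edgeR adjusted p = 0.31), which kept it off the list.

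Txnip, on chromosome 3 (chr3:96557957-96561883), encodes an inhibitor of thioredoxin that responds to glucose. Its share was 0.370 and 0.367 at 20 min, 0.781 and 0.718 at 40 min, and 1.09 and 0.981 at 60 min. It was the deepest of the early coding genes, with 3568 conversions in the 20 min libraries together, and its replicates differed by far less than the times. Its mean share was 15.0 times that of the median gene at 20 min.

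Zfp36, on chromosome 7, encodes tristetraprolin, a protein that binds AU-rich elements in mRNA and promotes their decay. Its share was 0.517 and 0.208 at 20 min, 0.852 and 0.586 at 40 min, and 1.03 and 0.783 at 60 min. Replicate 3 was above replicate 4 at each time, and the early value rests on 66 conversions. Lif, which encodes the cytokine that keeps these cells undifferentiated, had 0.275 and 0.295 at 20 min, 0.592 and 0.533 at 40 min, and 0.712 and 0.744 at 60 min. Dusp6, a phosphatase that limits ERK signaling, went from 0.293 and 0.275 over 0.603 and 0.510 to 0.769 and 0.869. The 20 and 60 min libraries did not overlap for any of these genes, while the 40 and 60 min libraries of Zfp36 did.

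Neat1, the RNA around which nuclear paraspeckles form, had a share of 0.501 and 0.448 at 20 min and 0.913 and 0.922 at 60 min in the cytosol libraries. Its level was 9.34 to 31.5 CPM in the cytosol and 136 to 305 CPM in the nucleus, and carry-over of nuclear RNA and export cannot be told apart in these values. In the nucleus its mean share was 0.382 at 20 min and 0.765 at 60 min, below that in the cytosol. Carry-over and export cannot be told apart either in other first genes with a higher CPM in the nucleus than in the cytosol. The ratio was 28.6 in Mir17hg, 7.96 in Tsix and 7.05 in Snhg12. Only in Dusp6 of the 15 first genes was the CPM lower in the nucleus, at a ratio of 0.896.

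Motifs in the 3′ UTR were looked for because AU-rich elements mark many short-lived mRNAs. The last 500 bases of the longest coding transcript were searched on the sense strand for TATTTAT, the core of such elements. Of 6922 coding genes whose 3′ UTR filled the window, 15.0% held the motif. Among the 1570 genes over 2-fold above the median gene at 20 min it was 18.5%, and among the 904 genes over 2-fold below it at 60 min it was 8.52%. The A and T content of the windows also differed, with medians of 60.2% and 56.4%. In windows between the quartiles of A and T content the shares were 15.6% and 9.26%. For TTTATAT, the same letters in another order, they were 13.4% and 10.7% in those windows, and for the Pumilio motif TGTANATA 13.4% and 8.84%. All 9 of the first coding genes filled the window, and 4 of them, Lif, Zfp36, Yod1 and Tagap1, held TATTTAT, while it was found in none of the 6 last genes with a window. The A and T content of these windows differed as well, at 50.8% to 65.8% in the 9 first genes and 38.2% to 55% in the 6 last genes. The first match in each of the 4 genes is shown as DNA on the sense strand with the motif in capitals, because these are the elements that the text above refers to. The matches lie in the 3′ UTR, in the build GRCm38, at chr11:4272040-4272066 (+), chr7:28376967-28376993 (-), chr1:130724270-130724296 (+) and chr17:6955093-6955119 (-), and the sequences come from the Gencode M21 transcripts.
Lif: aaggggccttTATTTATtatttaaaac
Zfp36: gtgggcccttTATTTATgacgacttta
Yod1: gcattcatttTATTTATgacatgtgac
Tagap1: cagtagagttTATTTATtagtcacaat
A match is a description of these letters, and binding was not measured.

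The last genes formed another kind of list, resting on few conversions. The 15 named genes with the lowest share at 60 min were Tle6, Ppox, Fuz, Grin1, Phka1, AY036118, Bbs9, Ubxn11, Wdr90, Rasgrp4, Kctd17, Necab3, Skiv2l, Cep131 and Vill. Their mean share at 60 min was 0.0013 to 0.0043, and 14 of the 15 had fewer than 10 conversions in the 60 min libraries together. Their median genomic span was 16.7 kb (0.923 to 413 kb), and they had a median of 15 merged exon blocks against 3 in the first genes and 9 over all genes. In the larger sets the medians were closer, with 10 blocks in the 1895 genes below at 60 min and 6 in the 1983 above at 20 min. The adjusted p of the level of the 15 last genes at 60 min (edgeR) lay between 0.00055 and 0.019, a description, since the level chose them. Of the 15 calls, 9 were lost without 60 min replicate 3, 7 without 60 min replicate 4, and 13 when the background of deep genes was subtracted.

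Skiv2l, which encodes a helicase of the exosome-associated SKI complex, had the most conversions of them at 60 min. Its share was 0.0139 and 0.0051 at 20 min, 0.0024 and 0.0097 at 40 min, and 0.0017 and 0.0067 at 60 min, with 11 conversions at 60 min. The groups overlapped, and no arrival of new RNA could be seen. Ppox, which encodes a mitochondrial enzyme of heme synthesis, had no conversion at 20 min, for which 3 counts over both libraries would allow a share of up to 0.011. It had 0 and 0.0034 at 60 min. Tle6, a corepressor, had 0.0259 and 0.0260 at 40 min but 0 and 0.0027 at 60 min.

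Among the 1302 genes with 100000 or more T positions in all libraries, 521 were called below the median gene at 60 min, against 1895 of all 10034 genes. Across all genes the rank correlation of cytosolic CPM and share at 60 min was -0.262. The part of read depth in the count of calls was not tested. The lowest of the 521, picked after the values were seen, were Fkbp8, Xrcc5, Lars2, Trap1, Anapc5 and Idh3g. Xrcc5, which encodes the Ku80 subunit of DNA repair, had 0.0109 and 0.0142 at 20 min, 0.0081 and 0.0057 at 40 min, and 0.0101 and 0.0092 at 60 min. The 60 min values rest on 132 and 171 conversions and lay below those at 20 min. The 1st percentile of share among the deep genes was 0.0090 and 0.0095 at 20 min and 0.0145 and 0.0152 at 60 min. This percentile is taken over the same deep genes, so the lowest of them lie near it by construction, and no library without 4sU was used to measure reading errors. Conversions per T rose in Xrcc5, from 0.0294% and 0.0429% at 20 min to 0.0589% and 0.0696% at 60 min.

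**Figure D2:**
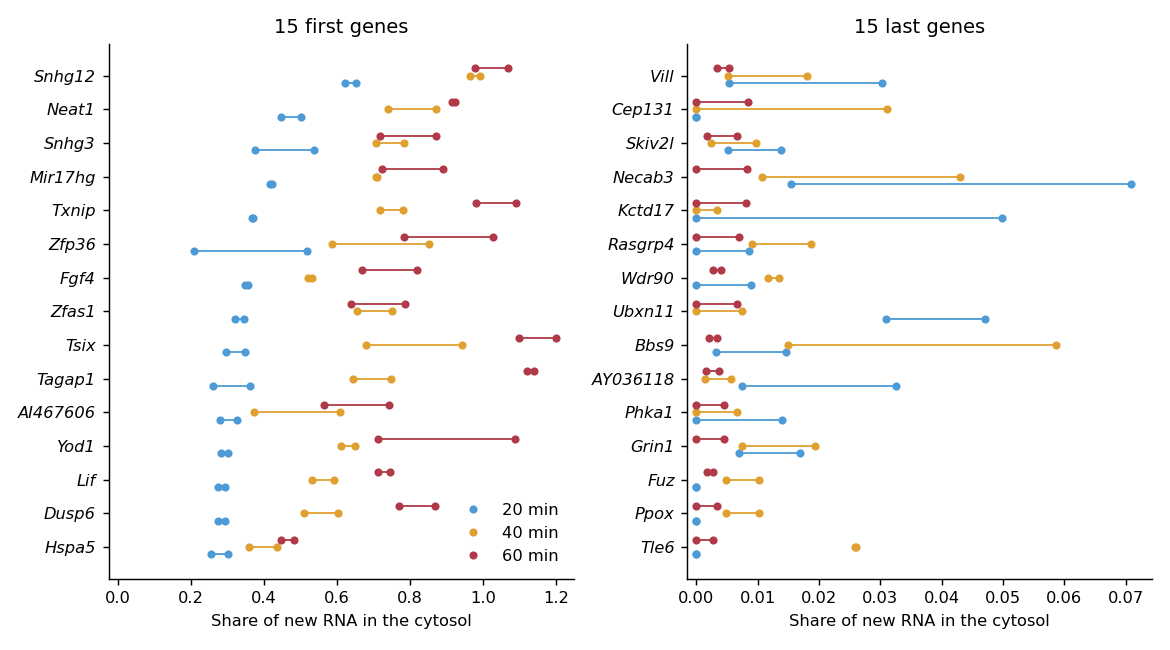
Share of new RNA of the 15 first and 15 last named genes in each cytosol library. Points are libraries, a line joins the 2 replicates of a time, and colors give 20, 40 and 60 min. The first genes lie between 0.208 and 0.653 at 20 min and their 20 and 60 min libraries do not overlap, while the last genes stay at or under 0.0085 at 60 min, on an axis of its own scale.

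Gene lists differed in the same way. The lists were described by counts beside the background above, and no list test was made. All 15 measured of 25 immediate early genes, which cells induce within minutes of a signal, were above the median gene at 20 min, and 14 were at 60 min. Their median share was 0.146 at 20 min and 0.633 at 60 min, against 0.0256 and 0.0873 over all genes, from Zfp36 (0.904 at 60 min) over Zfp36l2 (0.633) to Srf (0.158). Of 18 signal feedback regulators, which switch off the pathways that induce them, 14 were above at 20 min and 18 at 60 min, with a median share of 0.588 at 60 min. Among them were Socs3 (0.814), an inhibitor of LIF signaling, and Dusp5 (0.536). Both lists were above the library median in replicates 5 and 6 as well, 15 of 15 and 18 of 18 in each.

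Of 11 Myc and Id factors, 5 were above at 20 min and 8 at 60 min, with none below, and the median share at 60 min was 0.257. Id3, an inhibitor of helix-loop-helix factors, had 0.221 and 0.205 at 20 min and 0.575 and 0.597 at 60 min. Myc had 0.308 and 0.0711 at 20 min, a larger difference between replicates than for the others, and 0.621 and 0.542 at 60 min. Of 19 p53 targets, 13 were above at each time, with Cdkn1a (0.676 at 60 min), an inhibitor of cyclin-dependent kinases, the highest and Bax (0.047) the lowest. Of 302 zinc finger genes, 177 were above at 20 min and 248 at 60 min, 6 were below at 60 min, and 57 rose more steeply than the median gene.

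Pluripotency factors lay on both sides of the median gene. Of 23 genes, 10 (43.5%) were above it at 20 min and 11 (47.8%) at 60 min, against 19.8% and 24.6% of all genes. At 60 min 4 (17.4%) were below, near the 18.9% of all genes. Sox2 had 0.168 and 0.158 at 20 min and 0.454 and 0.411 at 60 min, and Klf4 had 0.178 and 0.144, then 0.538 and 0.513. Nanog was lower, at 0.0653 and 0.0683, then 0.238 and 0.201. Pou5f1, a core factor of the pluripotent state, had 0.0174 and 0.0171 at 20 min and 0.0341 and 0.0261 at 60 min, and Dppa5a, Dppa4 and Tcl1 were the others below. At 60 min the new share of Klf4 in the cytosol was thus far above that of Pou5f1, on a scale that depends on the conversion rate taken.

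Many genes of protein synthesis and energy metabolism had a low new share at 60 min. At 20 min fewer of them were called below the median gene. The 20 min counts were 1 of 82 cytosolic ribosomal proteins, 12 of 80 respiratory chain subunits and 7 of 36 proteasome subunits. Of 82 cytosolic ribosomal proteins, 78 were below the median gene at 60 min and none above, with a median share of 0.0156 at 20 min and 0.0305 at 60 min. Rpl31 had 0.0141 and 0.0154 at 20 min and 0.0330 and 0.0276 at 60 min. Of 80 respiratory chain subunits encoded in the nucleus, 69 were below at 60 min, with Atp5c1 of the ATP synthase lowest at 0.0134. Of 36 proteasome subunits 26 were below, of 17 glycolytic enzymes 11, of 34 tRNA synthetases 20, of 62 translation factors 25, of 78 mitochondrial ribosomal proteins 24, and of 8 TRiC chaperonin subunits 5. A few members stood out in the other direction, such as Eif4a2, a translation initiation helicase (0.468 at 60 min), Mars2, a mitochondrial synthetase (0.496), and Hk2, a hexokinase (0.188).

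Lists near the median gene were the 16 SR and Clk splicing regulators, of which 2, Clk4 (0.330 at 60 min) and Clk1 (0.230), kinases of splicing factors, were above at 60 min and none below. Of 30 cyclins and mitotic regulators, 5 were above and 4 below, with Ccne2 (0.467) and Cdc25b (0.022) at the ends. Of 35 chromatin remodelers and histone methylation genes, 12 were above and 5 below, from Chd2 (0.422) to Smarca4 (0.020).

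**Figure D3:**
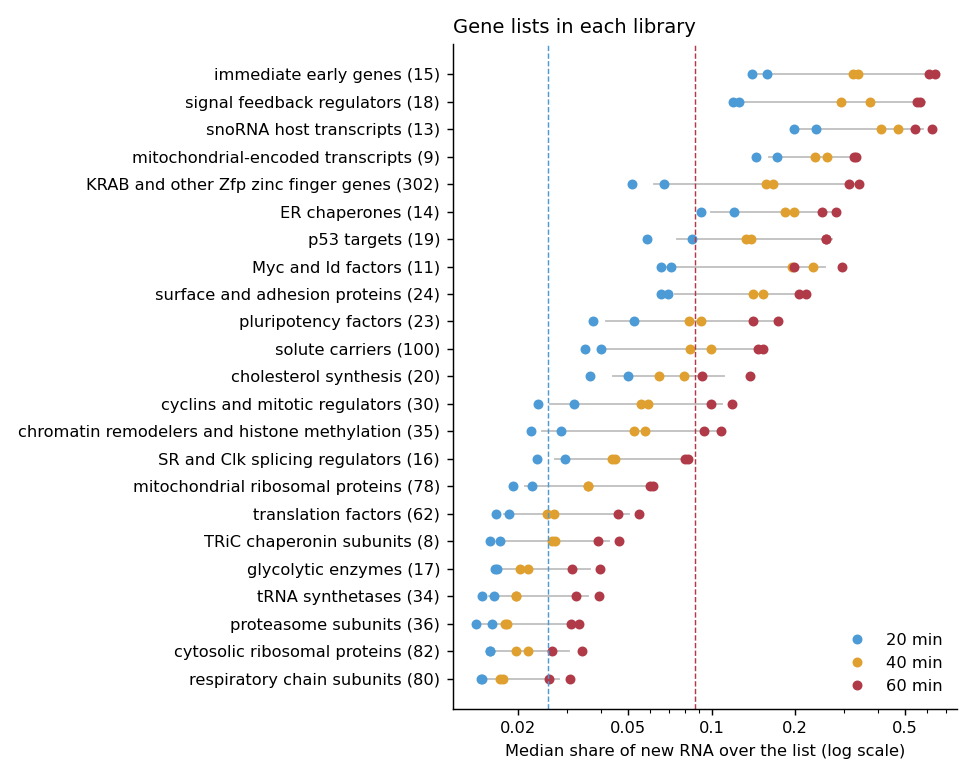
Median share of new RNA over the measured members of each gene list with at least 8 members, on a log scale, with the number of members in brackets. Each point is 1 cytosol library, colored by time, and the dashed lines are the median over all genes at 20 min (0.0256) and 60 min (0.0873). Immediate early genes, feedback regulators and snoRNA hosts lie to the right of the lines and ribosomal, respiratory and proteasome genes to the left.

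The snoRNA host transcripts had the highest median share of the lists at 20 min. Of 13 measured of 17 snoRNA host transcripts, 11 were above at both times, with a median share of 0.201 at 20 min and 0.582 at 60 min, and 7 rose less steeply than the median gene. Gas5 and Snhg11 were the exceptions, with 0.134 and 0.131 at 60 min. Over 181 noncoding RNA genes of all kinds, 78 were above at 20 min and 14 below at 60 min. Dancr had 0.967 at 20 min and 1.25 at 60 min as means of the libraries, but a second gene entry at the same place held nearly the same counts, so the value is uncertain. Of the 7 nuclear RNAs 3 could be measured, and 2, Neat1 and Malat1, were above at both times. Malat1 had 0.171 and 0.104 at 20 min and 0.220 and 0.156 at 60 min. The replication-dependent histone list, whose mRNAs mostly lack poly(A) tails, left 2 measured genes, Hist1h1c (0.413 at 60 min) and H1f0, a replacement histone (0.220), both above at both times. Of 9 measured transcripts encoded in mitochondria, which never pass through the nucleus, 8 were above at 20 min and 6 at 60 min, with mt-Nd2 at 0.237 and 0.187, then 0.519 and 0.468. All transcripts of the mitochondrial genome summed to 313 to 750 CPM in the cytosol and 5155 to 7992 CPM in the nuclear fraction.

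Transcripts enriched in the membrane fraction, which holds the endoplasmic reticulum and also mitochondria, had a higher new share in the cytosol than others. The 972 genes with 3 or more times as many reads (CPM) in the membrane fraction as in the cytosol had a median share of 0.0399 and 0.0474 at 20 min and 0.160 and 0.162 at 60 min. The 8248 genes with a ratio of 0.5 to 1.5 had 0.0210 and 0.0260, then 0.0799 and 0.0784. The first class was higher in each of 6 libraries. Of the 972 genes, 39.9% were above the median gene at 20 min, against 17.2% of the 8248. In the nuclear libraries the medians of both classes were alike, at 0.255 for the membrane class and 0.277 for the other in replicate 3, and at 0.183 and 0.189 in replicate 4, at 60 min. At 60 min the share in the cytosol was 0.765 of that in the nucleus for the median gene of the membrane class, and 0.377 for the other. Over all 10006 genes measured in both, 859 had a higher mean share in the cytosol than in the nucleus at 60 min. Fewer T positions lay behind the membrane class, with a median of 9.65 CPM in the cytosol against 39.5 CPM.

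Of 14 ER chaperones, which fold proteins in that compartment, 13 were above at 20 min and 12 at 60 min, with a median share of 0.0997 and 0.276. Hspa5 (BiP), the main chaperone of the ER lumen, had 0.255 and 0.302 at 20 min, 0.359 and 0.435 at 40 min, and 0.483 and 0.446 at 60 min. It was 34.7 times as abundant in the membrane fraction as in the cytosol, and its nuclear share of 0.284 at 20 min was close to the cytosolic 0.279. At 60 min its nuclear share was 0.275, below the cytosolic 0.465. In the cytosol Hspa5 rose less steeply than the median gene (log2 difference -1.06, edgeR adjusted p = 0.0014). Herpud1, a component of ER-associated degradation, had the highest share of the list, 0.584 at 60 min. Of 24 surface and adhesion proteins, 14 were above at 20 min, such as Tfrc, the transferrin receptor, with 0.123 and 0.109, then 0.381 and 0.336. None was below at 60 min. Of 20 genes of cholesterol synthesis, 8 were above at 20 min, and 2, Pmvk and Mvk, were below at 60 min. Of 100 solute carriers, 41 were above at 20 min and 7 below at 60 min.

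**Figure D4:**
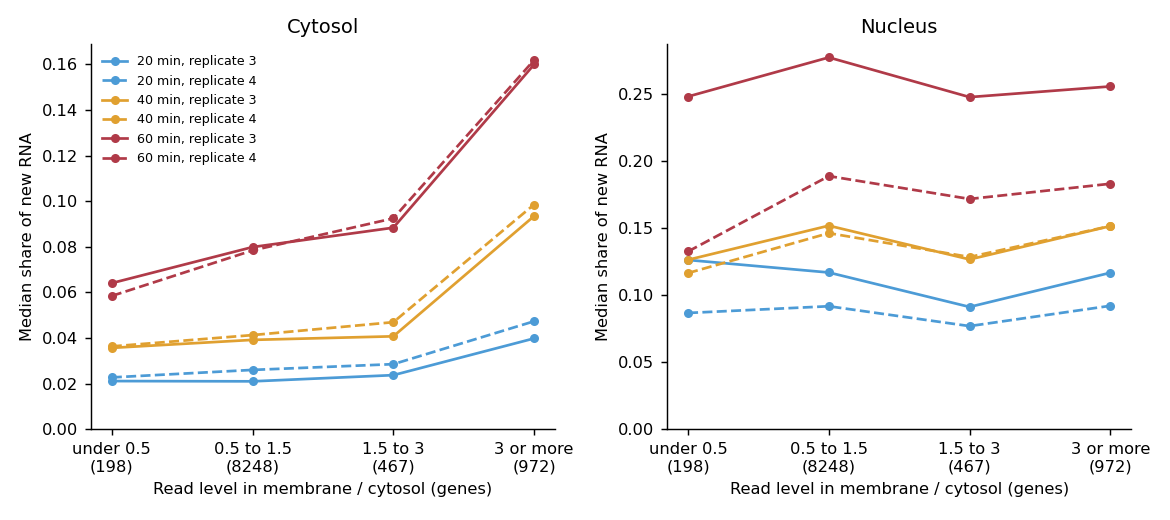
Median share of new RNA in the cytosol and the nucleus for genes in 4 classes of the ratio of reads (CPM) in the membrane fraction to the cytosol, with the number of genes in brackets. Each line is 1 library, with replicate 3 solid and replicate 4 dashed. In the cytosol the class with a ratio of 3 or more lies highest in all 6 libraries, up to 0.162 at 60 min, and in the nucleus it does not stand apart.

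Gene length was compared because a longer gene takes longer to transcribe. At 20 min the 1113 genes spanning over 100 kb had a median share of 0.0227 and 0.0276, and the 2702 genes under 10 kb had 0.0230 and 0.0288. At 40 min the long genes were higher, with 0.0484 and 0.0510 against 0.0399 and 0.0422, and at 60 min they had 0.0986 and 0.0964 against 0.0755 and 0.0757. The ratio of long to short thus went from 0.990 and 0.959 at 20 min to 1.31 and 1.27 at 60 min. Over the 6 libraries the mean difference was 0.0099, and an exact sign-flip permutation test (two-sided) gave p = 0.125, where 0.031 is the smallest p possible. The share of genes over 2-fold above the median gene at 20 min was 25.6% for spans under 5 kb, reached its lowest value of 15.6% between 30 and 100 kb, and was 17.9% in the longest genes.

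In a long gene the exons far from the 3′ end are transcribed well before those near it. When only exons within 5 kb of the 3′ end were used, the 787 long genes had ratios to the short genes of 1.23 and 1.13 at 20 min, 1.73 and 1.74 at 40 min, and 1.68 and 1.65 at 60 min. They were higher in all 6 libraries (mean difference 0.0286, exact p = 0.031). The call thus changed with the exons used, over fewer long genes. The rank correlation across 10016 genes between genomic span and mean share was only -0.053 at 20 min and 0.045 at 60 min.

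The number of exons went with the share more than the span did. Genes with 2 or 3 merged exon blocks had median shares of 0.0358 and 0.0429 at 20 min and 0.150 and 0.147 at 60 min. Genes with 20 or more blocks had 0.0187 and 0.0224, then 0.0728 and 0.0741. Of the 813 genes with 2 or 3 blocks, 42.1% were above the median gene at 20 min, and of the 1630 genes with 20 or more, 9.45%. Genes with 1 block, among them the processed pseudogenes, lay between, at 0.0280 and 0.0337 at 20 min. Across genes, the rank correlation of block number and share was -0.242 at 20 min.

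**Figure D5:**
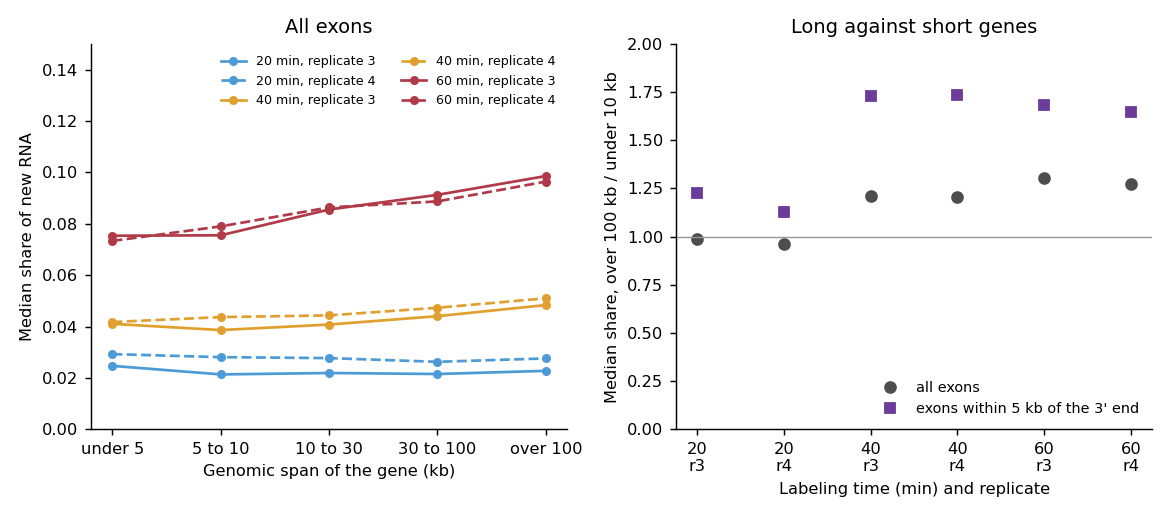
Median share of new RNA by genomic span of the gene in each cytosol library (left), and the ratio of the median share of genes over 100 kb to that of genes under 10 kb (right), for all exons and for exons within 5 kb of the 3′ end. With all exons the ratio is 0.990 and 0.959 at 20 min and 1.31 and 1.27 at 60 min.

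Against the median gene, 296 genes (2.95%) rose more steeply and 656 (6.54%) less steeply by edgeR's test, with 0.5 as the least log2 difference. These counts moved with the processing more than any other here, with 16 steeper and 0 shallower calls by limma. The steeper genes had a median share of 0.0311 at 20 min and 0.288 at 60 min and a median span of 26.1 kb. The shallower genes had 0.0226 and 0.0347 and 10.9 kb. They were highly expressed, with a median of 160 CPM against 30.7 CPM over all genes, and 74 of 82 cytosolic ribosomal proteins were among them.

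The 8 steepest named genes were Fhl3, Plekhh2, Fzd3, Afap1, Nup210, Mcam, Arhgap27 and Klhl18, and 5 of them had no conversion at 20 min. Fhl3, a LIM-domain protein, had 0.0480 and 0.0472 at 40 min, and 0.192 and 0.249 at 60 min, from 29 and 125 conversions. Its share over both 60 min libraries pooled was 0.236, at least 27.2-fold higher than the 3 counts that 0 allows over both 20 min libraries pooled. Mcam, a cell adhesion molecule, had 0.0111 and 0 at 20 min, 0.125 and 0.167 at 40 min, and 0.409 and 0.327 at 60 min, with 1 conversion at 20 min. In replicates 3 and 4 both genes lay below the median gene at 20 min and above it at 60 min. The low level at 20 min was called for Fhl3 but not for Mcam. In the 20 min libraries of replicates 1 and 2, Mcam was at 3.24 and 2.39 times the library median. Fhl3 was at 0.443 and 1.99 times the median there. The low start of Mcam was thus not seen in those libraries.

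The 8 shallowest were AY036118, Camkmt, Capn3, Aldh1l2, Gpat2, Rasgrp2, Kifc3 and Eif2s3y. All 16 calls of the steepest and shallowest genes were lost when the background of deep genes was subtracted. Of the 16, 11 were lost by limma and 5 by DESeq2. Among the shallowest, Kifc3, a kinesin, had 0 and 0.492 at 20 min but 0.0304 and 0.0603 at 60 min. Capn3, a calpain protease, had 0.135 and 0 at 20 min. For both genes 1 library decided the call. Without 20 min replicate 4 the log2 difference of Kifc3 was 5.73, and without 20 min replicate 3 that of Capn3 was 4.11, both against the direction found with all libraries and neither called.

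The 10 genes whose share fell were Fam50a, Dctd, Rasgrp2, Lars2, Cbx7, Gm12245, Gm6286, Gm47283, Rpl15-ps2 and AY036118. In some of them the conversions per T did not fall. Gm12245, a processed pseudogene, had 1.20% and 1.40% T2C per T at 20 min and 1.42% and 1.73% at 60 min, and Gm47283, on chromosome Y, had 1.62% and 1.94%, then 2.13% and 2.82%. Their shares fell from 0.454 to 0.236 and from 0.622 to 0.369, since the conversion rate by which they are divided rose more. Cbx7, a Polycomb protein, had 0.301% and 0.396%, then 0.486% and 0.649%. The T positions read in Lars2 and AY036118 differed widely between replicates 3 and 4 at 60 min. They were 1238489 and 256886 in Lars2, and 37877 and 8361 in AY036118. The part of sequence variants or of reads from other copies in the values of these 10 genes was not tested.

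In libraries that had no part in choosing them, the first and last genes lay mostly on the same sides. The 15 first genes were above the library median in each of the 8 cytosol libraries of replicates 1, 2, 5 and 6. These were labeled for 15, 20 and 30 min in replicates 1 and 2 and for 60 min in replicates 5 and 6. The median ratio of the first genes was 12.8 and 14.8 in the 20 min libraries of replicates 1 and 2. All 15 were also above the library median in the nuclear libraries of replicates 3 and 4 at 20 and 60 min. The 15 last genes were below the median in both 60 min libraries of replicates 5 and 6, and 10 and 15 of them were below it in the 20 min libraries of replicates 1 and 2. Of the 1983 genes above at 20 min, 90.7% and 93.0% lay above the median in the 20 min libraries of replicates 1 and 2, and of the 1895 genes below at 60 min, 99.6% and 99.8% lay below it in replicates 5 and 6. By construction as many of all genes lie above the median as below it.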

How the data were processed

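Poly(A) RNA of the cytosol was measured in 6 libraries. Per the labels and the study's methods, reads were aligned with STAR 2.7.6 to GRCm38 and counted with HTSeq 0.11.1, and RSEM 1.3.3 is named. The authors deposited raw read counts per gene and counts of T and T2C per exon, gene and intron, without normalization, the conversion rate of each library as a fraction, and the ratio of T2C to T divided by that rate. The ratio was recomputed from the counts, and no background was subtracted. Between 30.7% and 32.6% of counted reads had no gene and stayed out. Intervals and floors cover counting error only.

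T2C counts of genes with at least 2000 T in exons of all 6 libraries were tested with edgeR 4.0.16 (R 4.3.3, quasi-likelihood, Benjamini-Hochberg). The offset was the T count times the conversion rate, or times the median T2C per T of the library for comparisons with the median gene. A call took 0.05 as the adjusted p threshold and a log2 difference beyond 1 for levels or 0.5 for rises against the median gene and read counts. The p-values measure the spread between 2 cultures a group. The fit was tested on simulated data for the rise against the median gene. It recovered 27 of 100 genes changed by a log2 of 1 and 90 of 100 changed by a log2 of 2. There were 3 false calls. DESeq2 1.42.0, limma 3.58.1 on log2 (share + 0.001), T minimums, centring, background and left-out libraries were alternatives. The list of first genes took the 15 highest shares at 20 min among genes called above the median gene there, above the median in both libraries and called as rising. The last were the 15 lowest shares at 60 min among genes called below, and the steepest and shallowest were 8 each. From each gene list the highest, middle and lowest members were candidates for naming. Predicted genes and pseudogenes were counted but passed over. Other named genes were picked after their values were seen. Gene symbols and spans came from Gencode M21 (GRCm38), in which 18 of the 10034 genes had no entry. Genes and lists were chosen with earlier results of these data known. In nuclear and other cytosol libraries a minimum of 400 T was used. Some members of the lists are not reported here by name.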

Additional observations from a re-analysis of the deposited data

Results flagged for a closer look

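The 15 first genes at 20 min and the 15 last genes at 60 min were looked at over the 4 cytosol libraries of that time, as share over the library median, along with the median share itself, and 5 of 32 such groups had 1 library far from the others by Dixon's ratio (gap over range, critical value 0.829). Chance flags about 1 in 20 groups. For Snhg3 at 20 min the ratio was 0.930, with 1 library at 13.7 times the median and the others between 23.9 and 24.6. At 60 min it was 1.0 for Tle6 and 1.0 for Grin1, each with 1 library above 0 and 3 at 0, 0.907 for Fuz and 0.855 for Cep131. The last 4 rest on few conversions.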

How the results depend on the processing

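Genes called as falling numbered 80 by DESeq2, 24 and 54 with the background of deep or of all genes subtracted and 16 by limma. Steeper calls numbered 27 by DESeq2, 462 at a T minimum of 10000, 41 after deep-gene subtraction, 852 when centred on the library total and 16 by limma. Shallower calls numbered 149, 333 and 0 after deep-gene subtraction, centring and limma. Genes above the median gene at 20 min numbered 727 by DESeq2 and 1203 at 10000 T, and at 60 min 1100 and 1599. Genes below it numbered 701 at 20 min and 1125 at 60 min after deep-gene subtraction, and 644 at 20 min when centred. The causes were not tested. The deep-gene subtraction was chosen after seeing the data. The length difference was 0.00999 at 10000 T, 0.0185 by summed exon length and 0.0286 near the 3′ end. The median share was 0.0196 at 20 min in replicates 1 and 2, 0.0389 at 40 min at 10000 T, and at 60 min 0.0932 at 400 T, 0.0738 at 10000 T, 0.0789 after subtraction and 0.182 in replicates 5 and 6.

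With the replicate block, 6 genes fell and 165 genes changed in read counts. No label ties the numbers to a batch or day. Deviations of same-numbered libraries correlated by 0.0127 to 0.0613 in share and by 0.664 to 0.739 in CPM, a hint from the data that read counts are paired.

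Leaving out 1 library gave 5 to 21 falling, 72 to 306 steeper and 141 to 722 shallower genes, 270 to 511 below at 20 min, 1091 to 2016 below at 60 min, and 0 to 3 changed in read counts. Without 60 min replicate 3 there were 72 steeper, 257 shallower and 1127 below at 60 min, and without replicate 4 103, 141 and 1091. Without 20 min replicate 4, 270 were below at 20 min. The log2 rise of Capn3 ran from -5.84 to 4.11 and that of Kifc3 from -5.03 to 5.73, reversed without 20 min replicate 3 and 4.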
